A study of Mus musculus with 6 samples.

Results

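Hearts of mouse embryos were examined for 9 genes of pacemaking and cardiac conduction: the channel genes Hcn2, Hcn3 and Hcn4, the nodal transcription factor genes Shox2, Tbx3, Tbx2 and Isl1, and the ventricular conduction system genes Cntn2 and Irx3. They were chosen by gene symbol for their known roles, after earlier results of these data had been seen, and make up 9 of the 48709 genes in the table. Double knockout embryos were RBPMS flox/flox and RBPMS2 flox/flox and positive for a Cre transgene labelled XML, for loss of both RNA-binding protein genes in cardiomyocytes (3 libraries). Control embryos carried the same floxed alleles with no Cre and were littermates (3 libraries). All were of the C57BL6/J strain, and polyA RNA was taken from the heart. The sources used here do not give the embryonic day, the promoter that XML stands for, or whether a library came from 1 or several hearts. No group had Cre without the floxed alleles, so an effect of Cre itself and of the loss of the genes cannot be told apart.

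HCN channels open when the membrane is hyperpolarised, bind cyclic AMP and carry the pacemaker current. HCN4 is the main form in the sinoatrial node of the mouse. In the early embryo its gene is also active in the wider heart tube, before it becomes restricted to the nodes and conduction system. Shox2, Tbx3 and Isl1 maintain the nodal programme, in part by keeping working-myocardium genes off. Tbx2, induced by BMP2, does the same in the atrioventricular canal. Contactin 2 marks Purkinje cells, and IRX3 patterns the His-Purkinje network.

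The promoters of Hcn4, whose level differed most clearly between the genotypes, and of Hcn2, a channel gene near the detection limit in both, are shown for comparison within the family. Each covers 250 bases before and 50 bases after the RefSeq start on GRCm38.p6, the build of mm10, on the plus strand. Hcn4 lies at chr9:58822699-58822998 and Hcn2 at chr10:79716384-79716683. Capitals mark GC boxes, GGGCGG read on either strand.
Hcn4: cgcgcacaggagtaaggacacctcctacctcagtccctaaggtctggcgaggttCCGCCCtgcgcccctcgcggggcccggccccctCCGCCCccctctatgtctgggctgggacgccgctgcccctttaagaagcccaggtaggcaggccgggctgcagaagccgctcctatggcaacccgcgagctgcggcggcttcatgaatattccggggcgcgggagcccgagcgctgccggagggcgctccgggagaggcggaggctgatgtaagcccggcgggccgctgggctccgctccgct
Hcn2: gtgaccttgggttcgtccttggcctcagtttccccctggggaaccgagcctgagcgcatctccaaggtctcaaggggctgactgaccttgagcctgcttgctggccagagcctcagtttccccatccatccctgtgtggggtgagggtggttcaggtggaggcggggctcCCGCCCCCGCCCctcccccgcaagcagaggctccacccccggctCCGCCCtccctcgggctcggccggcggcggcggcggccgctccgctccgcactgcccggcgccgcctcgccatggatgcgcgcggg
Hcn4 held 2 GC boxes and Hcn2 held 3, and 35.7% of 32851 promoters in the RefSeq table held at least 1. GC content was 71.7% for Hcn4 and 72.3% for Hcn2. The 5 letters GGTGT, the core of T-box factor sites, occurred 1 time in the Hcn4 window, outside its GC boxes, and not in the Hcn2 window, and 41.6% of all promoters held it. The NKX2-5 core AAGTG occurred in neither of these windows and in 46.4% of all promoters. Both motifs were read on both strands. The RefSeq start of Hcn4 lies upstream of the GENCODE span given for the gene below.

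Proteins of the RBPMS family bind RNA that carries CAC in pairs. Such pairs, CAC followed after 1 to 12 bases by another CAC on the sense strand, numbered 36 in the 6118-base Hcn4 transcript, or 5.88 per kilobase. Over 17032 tested protein-coding genes the median was 3.02 per kilobase, which put Hcn4 at the 88.4th percentile, with Irx3 at the 85.2nd (5.46 per kilobase) and Hcn2 at the 73.9th (4.38 per kilobase). Tbx2 had 3.86 and Tbx3 had 3.21 per kilobase. At least 1 pair was present in 97.1% of these genes, so a match describes the sequence and is no sign of binding. The densest 30-base stretch of Hcn4 coding sequence is shown with CAC in capitals, from exon 8 of 8, chr9:58859826-58859855, plus strand, mm10.
Hcn4 coding stretch: CACcagccccCACACcctcCACctcCACtg
It held 5 CAC triplets, counting 2 that share a C, and 9.29% of the genes held a coding stretch with as many. Hcn2 and Shox2, neither called, also held a coding stretch with 5, and the other 6 genes reached 3.

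The values are read counts that the authors scaled per library and rounded, called normalised read counts below. They summed to between 19770390 and 20215282 per library, from an estimated 18760330 to 21991535 reads, and 1 normalised read stood for close to 1 counted read in each library. Both targeted genes were lower in double knockout libraries, which checks the labels: Rbpms was at 721, 699 and 670 in double knockouts 1 to 3, against 3551, 3853 and 3956 in controls 1 to 3. Rbpms2 was at 1676, 1257 and 1429 in double knockouts, against 2444, 2571 and 2716 in controls. All 12 core cardiomyocyte markers were measured in every library, and 5 of 6 lung and foregut markers stayed at 6 or less in each library. Double knockout 3 and control 3 had a male pattern, with Xist at 20 and 6, and the other 4 libraries a female one. Of 26747 tested genes 4.86% were called in either direction, 2.31% higher and 2.55% lower in double knockouts (limma, Benjamini-Hochberg adjusted p under 0.05 on the log2(value + 1) scale). Without the robust variance option, which gives genes of unusual spread less weight in estimating the common variance, 1.31% were called in either direction and 0.77% as lower. Log2 differences below are double knockout minus control on that scale.

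Of the 9 genes, all of which passed the filter on low values, 1 fell and none rose in double knockout hearts, where 2.55% of all tested genes fell and 2.31% rose. Without the robust option the count was also 1 lower and 0 higher. At an unadjusted p under 0.05 there were 2 lower and 0 higher. The share of all tested genes at that threshold was not computed, here or for the lists of genes. Limma with voom weights also called 1 lower and 0 higher, where 604 of all tested genes were lower and 672 higher. The median log2 difference of the 9 was -0.10, against 0.02 over all tested genes. Groups did not overlap for 2 of the 9, Hcn4 and Tbx2, both lower, where 21.7% of all tested genes did not overlap and 10.6% did so with double knockouts lower. Levels fell into 2 ranges: 4 genes averaged over 100 normalised reads in controls (Hcn4, Tbx2, Tbx3 and Irx3) and the other 5 stayed under 20 on average in both genotypes.

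**Figure D1:**
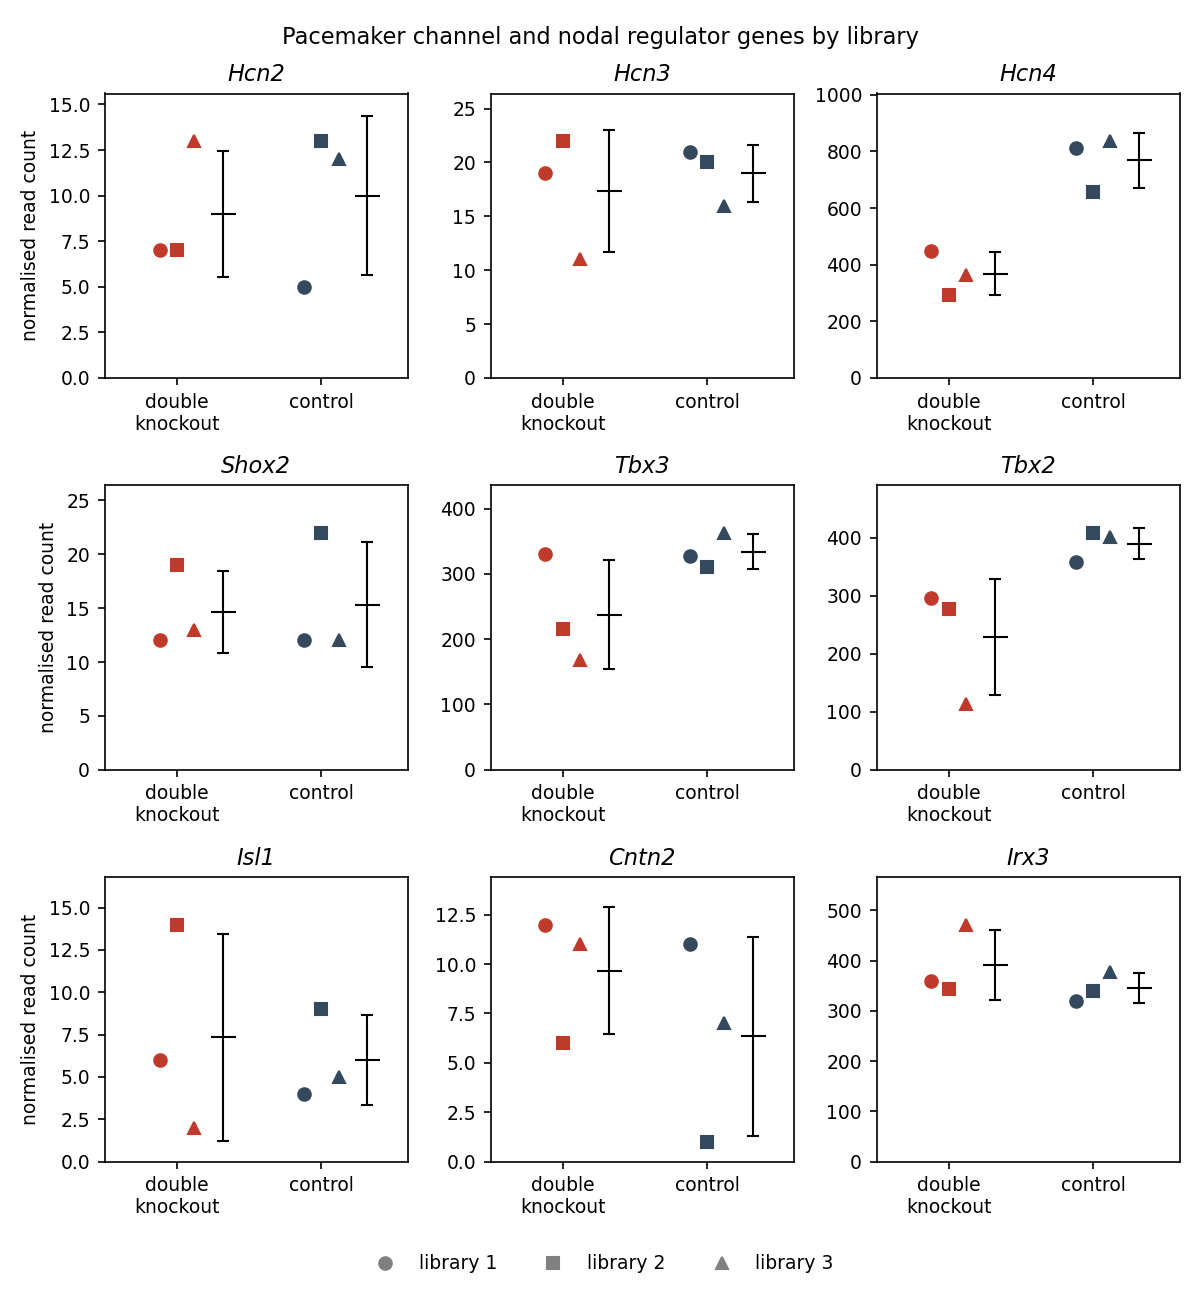
Normalised read counts of the 9 genes in each library, double knockout left and control right, with marker shape for the library number and bars for mean and SD (n = 3 per genotype); the vertical axes start at 0 and differ between panels. Hcn4 was at 294 to 447 in double knockouts and 657 to 837 in controls, with no overlap.

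Hcn4 (ENSMUSG00000032338, chromosome 9, 58823412 to 58863175, plus strand, mm10), the principal pacemaker channel, was at less than its control level in every double knockout heart library. It had 447, 294 and 363 normalised reads in double knockouts 1 to 3, against 811, 657 and 837 in controls 1 to 3. The highest double knockout value lay below the lowest control value. The means were 368 ± 76.6 in double knockouts and 768 ± 97.3 in controls (SD, n = 3 each), a ratio of 0.479. The log2 difference was -1.07 ± 0.14 (SE; 95% interval -1.37 to -0.78; limma adjusted p = 0.000367). With any 1 library left out it lay between -1.22 and -0.92, and all 6 such fits kept the call (adjusted p up to 0.00938). Without the robust option the adjusted p was 0.0350. Without both libraries numbered 3, which leaves the female-pattern libraries, the difference was -1.01 and the call was lost (adjusted p = 0.176). In that fit the targeted gene Rbpms2 was not called either (limma adjusted p = 0.142), while Rbpms was (0.00102). In RNA of a whole heart, fewer Hcn4-expressing cells and less Hcn4 RNA per cell cannot be told apart.

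Hcn3 and Hcn2 were near the detection limit. Hcn3 had 19, 22 and 11 normalised reads in double knockouts, against 21, 20 and 16 in controls, with overlapping groups (log2 difference -0.17, 95% interval -0.81 to 0.47, adjusted p = 0.808). Hcn2 had 7, 7 and 13 in double knockouts, against 5, 13 and 12 in controls (-0.10, interval -0.95 to 0.76, adjusted p = 0.924). Both intervals include a fall as deep as 1.5-fold and a rise, so at this depth a change of that size was not detectable. Hcn3 shares part of its span with Pklr on the opposite strand, and Pklr had 135, 45 and 134 in double knockouts, against 73, 77 and 145 in controls. The library kit keeps strand, but the sources used here do not say whether counting used it.

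Per kilobase of exon, Hcn4 stood far above Hcn2 and Hcn3 in both genotypes. Its level was 60.2 normalised reads per kilobase in double knockouts and 126 in controls, while Hcn3 was at 4.17 in double knockouts and 4.57 in controls and Hcn2 at 2.82 in double knockouts and 3.13 in controls. Of the summed level per kilobase of these 3 genes, Hcn4 made up 91.5%, 86.5% and 89.8% in double knockouts 1 to 3, against 95.2%, 92.4% and 94.7% in controls 1 to 3. The share was lower in each double knockout than in each control, and Hcn4 was the most abundant of the 3 in all 6 libraries. Hcn2 and Hcn3 together were at 6.72 to 7.49 per kilobase in double knockouts and 6.62 to 8.88 in controls.

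**Figure D2:**
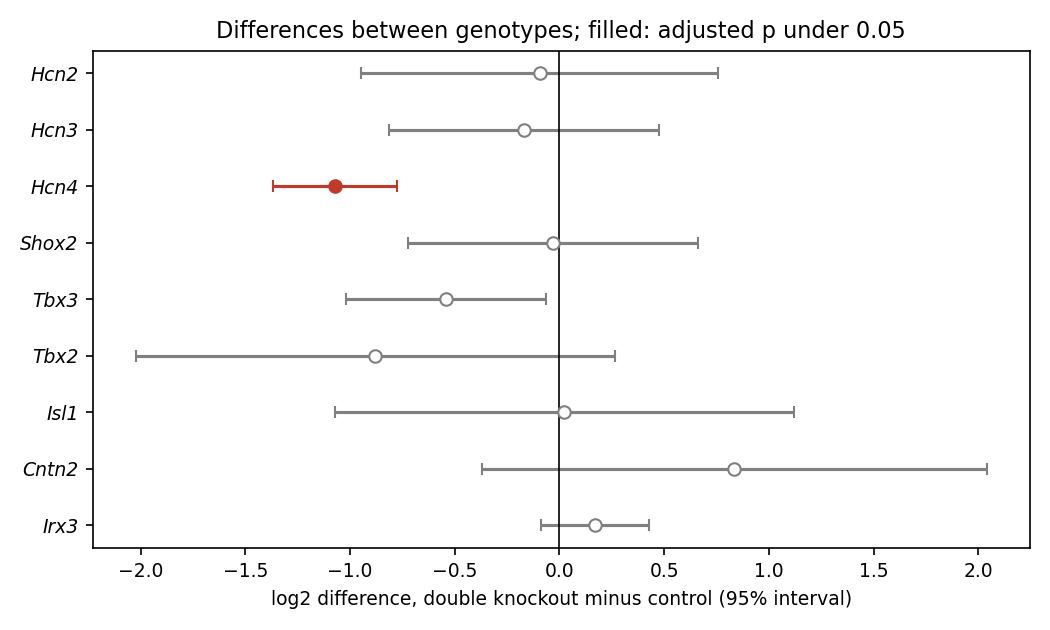
Log2 differences, double knockout minus control, with 95% intervals from limma for the 9 genes; filled points have an adjusted p under 0.05. Hcn4, at -1.07, is the filled point, and the intervals of Isl1, Cntn2 and Tbx2 are the widest.

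Tbx2 and Tbx3, T-box repressors of the chamber programme, averaged less in double knockouts, with a wide spread between those libraries. Tbx2 (ENSMUSG00000000093, chromosome 11, 85832551 to 85841948, plus strand, mm10) had 296, 278 and 114 normalised reads in double knockouts 1 to 3, against 359, 409 and 401 in controls 1 to 3. Each double knockout lay below each control, and double knockout 3 lay far below the other two. The difference of -0.88 did not pass the threshold (SE 0.43, 95% interval -2.02 to 0.27, limma adjusted p = 0.376). Without double knockout 3 it was -0.44 (adjusted p = 0.0677). Tbx3 (ENSMUSG00000018604, chromosome 5, 119670669 to 119684724, plus strand, mm10) had 330, 215 and 168 in double knockouts, against 328, 311 and 363 in controls. Double knockout 1 lay within the control range and the other two below it. The difference was -0.54 ± 0.21 (SE; interval -1.02 to -0.06; limma adjusted p = 0.206), and it passed only in the fit without double knockout 1 (-0.81, adjusted p = 0.00702) among those with 1 library left out. The order of Tbx2 above Tbx3 per kilobase held in every library, with a ratio of 1.24 to 2.36 in double knockouts and 2.00 to 2.402 in controls.

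Transcripts beside these genes had low values. Tbx3os1, antisense to Tbx3, had 20, 15 and 13 in double knockouts, against 28, 21 and 27 in controls (-0.64, adjusted p = 0.218). The noncoding 2610027K06Rik, which starts within 2 kb of Tbx2 on the opposite strand, had 14, 11 and 8 in double knockouts, against 20, 21 and 17 in controls (-0.79, adjusted p = 0.171). In both, each double knockout lay below each control, and neither passed the threshold. Reads of Tbx3 and Tbx3os1 could not be told apart if counting ignored strand.

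BMP2 signals upstream of Tbx2, and MSX2 is a partner of the T-box repressors in the atrioventricular canal. Their genes, singled out from a list of 9 genes linked to the canal after their values were seen, followed the order of Tbx2 over double knockouts 1 to 3, with the last of these lowest. Bmp2 had 340, 269 and 144 in double knockouts 1 to 3, against 436, 479 and 549 in controls 1 to 3 (-1.04, limma adjusted p = 0.217). Msx2 had 112, 85 and 43 in double knockouts, against 195, 132 and 169 in controls (-1.12, adjusted p = 0.137). Neither passed, although no double knockout reached the lowest control. This list of 9 is not a set of canal markers, since its Hey2 is also among the ventricular markers below. Of these 9 genes none rose and 1 fell, where 2.31% of all tested genes rose and 2.55% fell. At an unadjusted p under 0.05, 2 were higher and 3 lower, with no share of all tested genes computed. The median was -0.04. Hey2, a repressor related to Hey1, went the other way from Bmp2 and Msx2, with 2080, 2065 and 2388 in double knockouts, against 1702, 1840 and 1792 in controls (0.29, adjusted p = 0.0630), as did Tbx20, a cardiac T-box factor gene (0.23, adjusted p = 0.140). Neither passed the threshold, and in both each double knockout lay above each control. The faller was Hey1, a Notch-responsive repressor, at 210, 225 and 245 in double knockouts and 290, 277 and 353 in controls (-0.43, adjusted p = 0.0491), a call lost with any of the 6 libraries left out (limma adjusted p 0.0531 to 0.312) and without the robust option (adjusted p = 0.130). With voom weights 1 gene of this list was higher and 0 lower, where 672 of all tested genes were higher and 604 lower. Twist1, a mesenchymal factor of the valve cushions, was also lowest in double knockout 3, at 430, 598 and 244 in double knockouts, against 431, 418 and 383 in controls. So were Has2, at 405, 495 and 282 in double knockouts and 404, 367 and 318 in controls, and Gata4. Gata4 had 5732, 5871 and 4843 in double knockouts, against 5399, 5904 and 5553 in controls. Hey1 and Hey2 were not lowest in double knockout 3. Tbx20 had 8493, 8642 and 7925 in double knockouts 1 to 3, against 6856, 7824 and 6674 in controls. Double knockout 3 was thus its lowest double knockout, though above each control. How much of the canal region went into each library was not measured, and its part in these values was not tested.

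**Figure D3:**
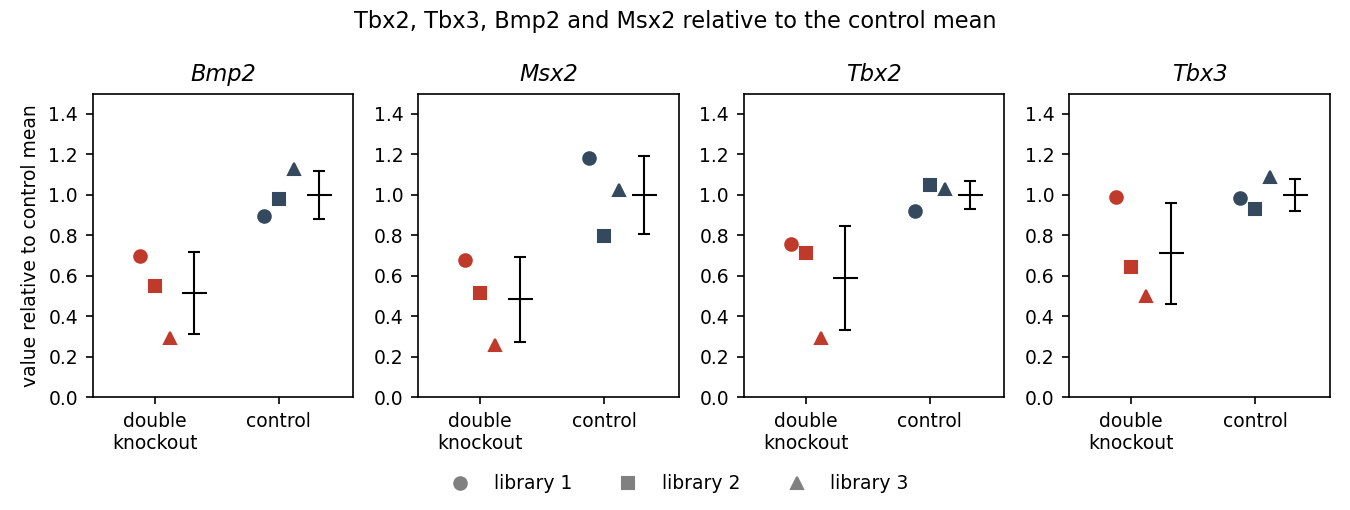
Bmp2, Msx2, Tbx2 and Tbx3 in each library divided by the control mean, double knockout left and control right, with bars for mean and SD (n = 3 per genotype). Double knockout 3, the red triangle, is the lowest library for each of the 4 genes.

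Shox2 and Isl1, at the top of the nodal programme, were barely detected in the whole heart. Shox2 had 12, 19 and 13 normalised reads in double knockouts, against 12, 22 and 12 in controls (-0.03, 95% interval -0.72 to 0.66, limma adjusted p = 0.974). Isl1, also a marker of second heart field progenitors, had 6, 14 and 2 in double knockouts, against 4, 9 and 5 in controls (0.02, interval -1.07 to 1.12, adjusted p = 0.992). Groups overlapped for both, and the intervals allow changes of 1.5-fold in either direction. The sign of either difference turned with the libraries used (-0.22 to 0.24 for Shox2 and -0.55 to 0.61 for Isl1 with 1 library left out). Shox2 lies within the span of Rsrc1 on the opposite strand, and Rsrc1 had 665, 661 and 623 in double knockouts, against 625, 666 and 675 in controls. Of 8 other second heart field and outflow genes, none was called, where 2.31% of all tested genes rose and 2.55% fell. At an unadjusted p under 0.05, 1 was higher and 2 lower, and the median was -0.13. The most abundant were Hand2 (0.06) and Sema3c (0.24).

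In the ventricular conduction pair, Irx3 was abundant and Cntn2 scarce. Irx3 (ENSMUSG00000031734, chromosome 8, 91798525 to 91802067, minus strand, mm10) had 360, 344 and 472 in double knockouts, against 320, 339 and 378 in controls, with overlapping groups. The means were 392 ± 69.7 in double knockouts and 346 ± 29.6 in controls (SD, n = 3 each), and the difference was 0.17 (95% interval -0.09 to 0.43, limma adjusted p = 0.475). The interval ends short of a 1.5-fold change in either direction. Without double knockout 3 the difference was 0.03. Its antisense gene Irx3os had 35, 31 and 36 in double knockouts, against 33, 22 and 45 in controls. Cntn2 had 12, 6 and 11 in double knockouts, against 11, 1 and 7 in controls (0.84, interval -0.37 to 2.04, adjusted p = 0.460). The single read in control 2 decided that value, which was 0.07 without it.

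**Figure D4:**
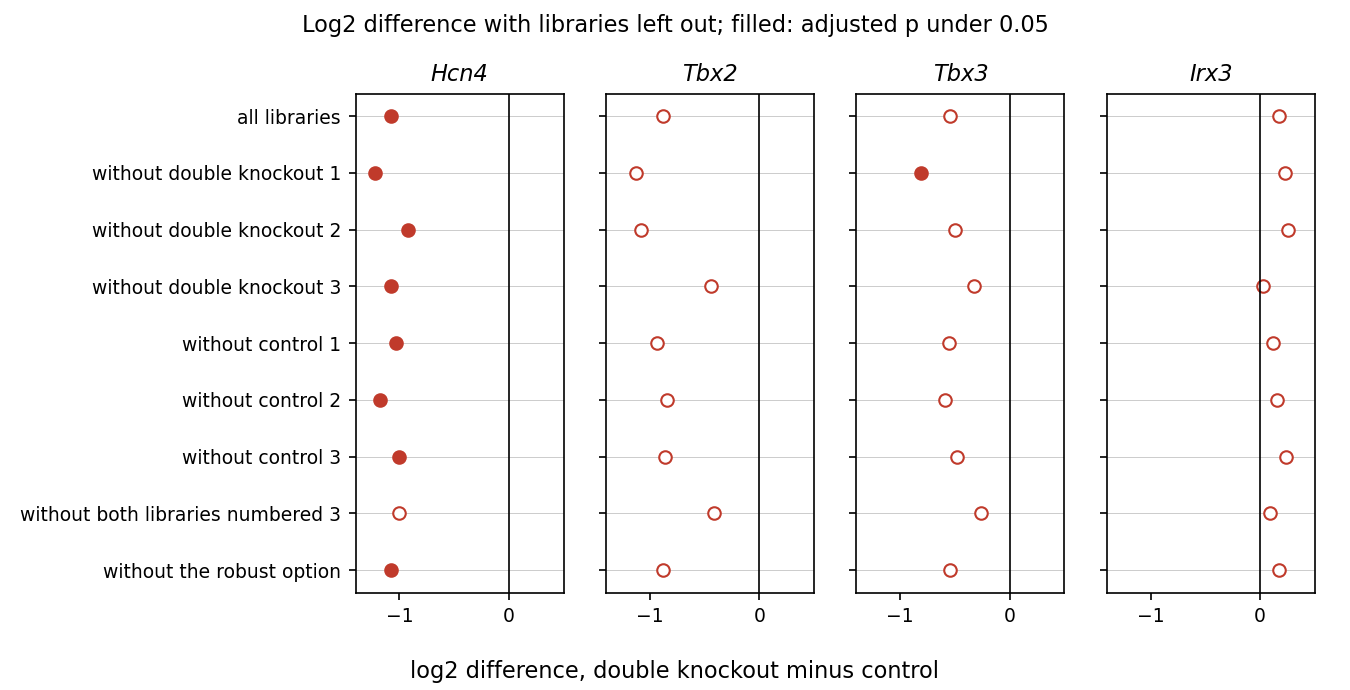
Log2 difference, double knockout minus control, of 4 genes with all libraries, with 1 library or both libraries numbered 3 left out, and without the robust option; filled points have an adjusted p under 0.05. Hcn4 stays between -1.22 and -0.92 in every fit shown, with an open point without both libraries numbered 3, while Tbx2 is at -0.44 and Tbx3 at -0.32 without double knockout 3.

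Ranked by level per kilobase, Hcn4 and Irx3 were level in controls (126 and 125) and Tbx2 came next (107), followed by Tbx3 (50.4). The control values of Hcn4 overlapped those of Irx3 and of Tbx2, those of Tbx2 lay below those of Irx3, and those of Tbx3 lay below them all. The other 5 were Shox2 at 4.63, Hcn3 at 4.57, Hcn2 at 3.13, Isl1 at 1.52 and Cntn2 at 0.681 in controls. In double knockouts Irx3 stood first at 142, with Tbx2 at 63.2, Hcn4 at 60.2 and Tbx3 at 35.9, and the values of these last 3 overlapped. Irx3 exceeded Hcn4 in each double knockout, at 130, 125 and 171 per kilobase for Irx3 against 73.1, 48.1 and 59.3 for Hcn4 in libraries 1 to 3. Among 10958 abundant protein-coding genes (mean 100 or more), those closest to Hcn4 over the 6 libraries were Fam57a (Pearson's r = 0.999), Adprh (0.997) and Dlst (0.996), computed on log2 values. With 6 libraries that share their genotypes, 699 genes exceeded 0.9, so this likeness describes the libraries.

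Of 16 other sinoatrial node genes 1 rose and 5 fell in double knockouts, where 2.31% of all tested genes rose and 2.55% fell. At an unadjusted p under 0.05, 2 were higher and 8 lower, a threshold at which the share of all tested genes was not computed. The median was -0.34 against 0.02 for all genes. This list, like the others, was chosen with earlier results of these data known. Its count is therefore a description and no independent support for a fall of nodal genes. Nor is the list a set of node markers, since its Kcnj3 and Kcnj5 are also among the atrial markers below and its Tbx18 among the epicardial ones. Cpne5, which encodes a calcium-binding copine, fell to 230, 229 and 152 in double knockouts, against 537, 513 and 600 in controls (-1.45, limma adjusted p = 9.85e-06). Kcnj5, whose product forms part of the potassium channel through which acetylcholine slows the node, fell to 1778, 1362 and 1467 in double knockouts, against 2722, 2598 and 2779 in controls (-0.82, adjusted p = 2.60e-05). In both genes each double knockout lay below each control. Cacna1d, the calcium channel that works beside HCN4 in diastolic depolarisation, fell to 573, 432 and 396 in double knockouts, against 860, 695 and 825 in controls (-0.78, adjusted p = 0.00173, or 0.0635 without the robust option). Rgs6, a brake on the vagal signal to the node, was at 362, 342 and 258 in double knockouts and 453, 426 and 446 in controls (-0.48, adjusted p = 0.0268), and the calcium sensor gene Vsnl1 at 18, 8 and 6 in double knockouts and 22, 49 and 39 in controls (-1.75, adjusted p = 0.0112). The riser was Ntm, which encodes the adhesion protein neurotrimin, at 927, 837 and 790 in double knockouts and 629, 661 and 625 in controls (0.41, adjusted p = 0.0116). Without the robust option 2 of the 16 fell, Cpne5 and Kcnj5, and none rose. Without double knockout 3, 3 fell and 1 rose, and without both libraries numbered 3, Cpne5 fell (-1.19, limma adjusted p = 0.0166) and none rose. Tbx18, needed for the sinus horns, had 1481, 1716 and 1625 in double knockouts, against 1231, 1664 and 1526 in controls.

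Of 7 genes for partners of HCN channels, 2 fell and none rose, where 2.55% of all tested genes fell and 2.31% rose. At an unadjusted p under 0.05, 0 were higher and 3 lower, with no share of all tested genes computed at that threshold. The median was -0.51. All 7 lay below 0, where 47.2% of all tested genes did, but Flna (-0.03) and Lrmp (-0.06) were close to 0 with overlapping groups. Cav3, the muscle caveolin, fell to 629, 759 and 690 in double knockouts, against 1085, 909 and 1000 in controls (-0.53, limma adjusted p = 0.00282). Mrvi1, which encodes IRAG1, a membrane protein of the endoplasmic reticulum that modulates HCN4, fell to 195, 138 and 203 in double knockouts, against 248, 310 and 299 in controls (-0.69, adjusted p = 0.00879). Both calls were lost without the robust option (adjusted p = 0.0562 for Cav3 and 0.110 for Mrvi1), that of Cav3 also without control 1 (adjusted p = 0.0550) and that of Mrvi1 without control 2 (0.0511) or control 3 (0.0846). Pex5l, the neuronal partner TRIP8b, was at 10, 1 and 8 in double knockouts and 7, 8 and 7 in controls.

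Of 6 chamber genes that TBX2 and TBX3 are known to repress, 1 rose and none fell, where 2.31% of all tested genes rose and 2.55% fell. At an unadjusted p under 0.05, 3 were higher and 1 lower, with no share of all tested genes computed at that threshold. The median was 0.17. The riser was Gja1, which encodes connexin 43, at 9929, 10115 and 12354 in double knockouts and 6232, 7470 and 5782 in controls (0.73, limma adjusted p = 0.000339). Its call was lost without both libraries numbered 3 (adjusted p = 0.172). Nppa, the atrial natriuretic peptide gene, had 6996, 8684 and 9847 in double knockouts, against 8727, 6647 and 7815 in controls (0.13, adjusted p = 0.607). Of 16 other conduction system genes, none was called (4 higher and 4 lower at an unadjusted p under 0.05), and the median was 0.19. Among them Gja5, connexin 40 of the atria and His-Purkinje system, had 4733, 4549 and 5211 in double knockouts, against 4174, 4100 and 4319 in controls (0.20, adjusted p = 0.195). None of the 5 other Iroquois genes was called (0 higher and 1 lower at an unadjusted p under 0.05; median 0.03), with Irx4 at -0.25 and Irx5 at 0.22. With voom weights the counts for the conduction, Iroquois and second heart field lists were also 0 in each direction. Other settings gave calls in the conduction list. Removal of GC and length trends gave 2 higher and 0 lower, where 754 of all tested genes were higher and 828 lower. No filter on low values gave 1 higher and 4 lower, where 963 of all were higher and 955 lower. Leaving out double knockout 1 gave 1 higher and 2 lower, where 514 of all were higher and 739 lower. With the GC and length trends removed Gja5 was called (0.28, limma adjusted p = 0.0186).

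**Figure D5:**
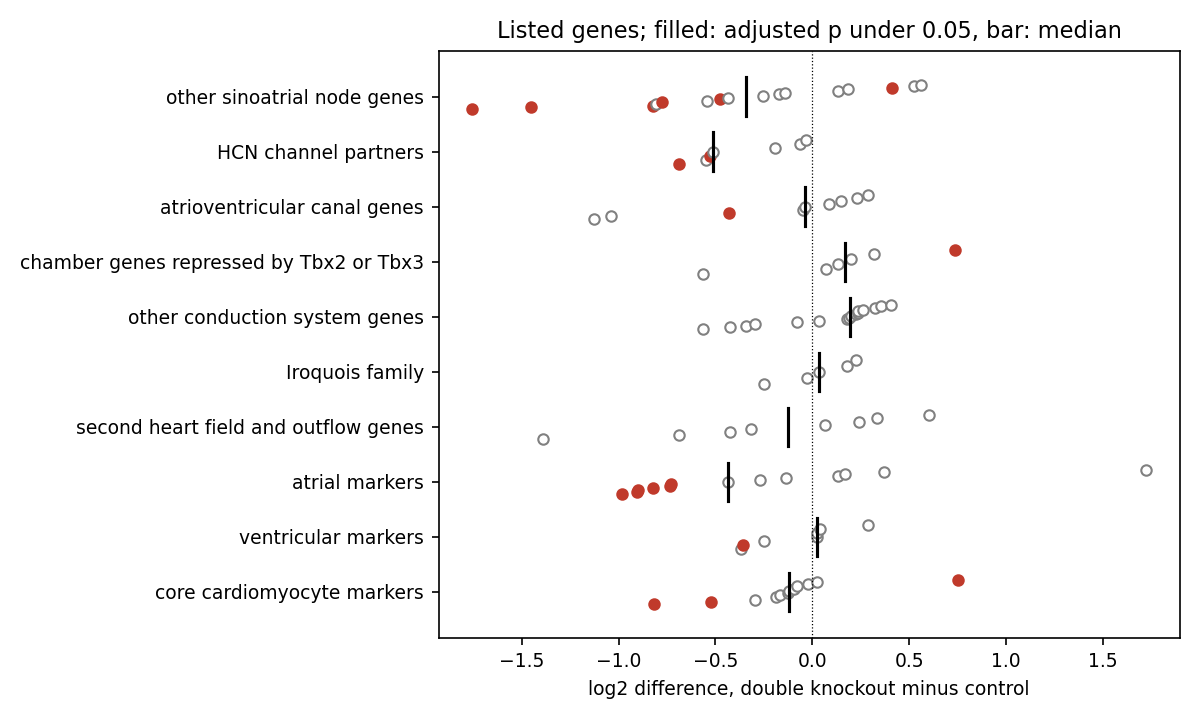
Log2 difference, double knockout minus control, of each tested gene in 10 lists; filled points have an adjusted p under 0.05 and bars mark the median of each list. The medians are -0.34 for other sinoatrial node genes, -0.43 for atrial markers, 0.03 for the Iroquois family and 0.02 for ventricular markers.

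Markers of chamber and cell types moved as follows beside these genes. Of 13 atrial markers none rose and 6 fell, where 2.31% of all tested genes rose and 2.55% fell. Of the same 13 markers, 1 was higher and 8 were lower at an unadjusted p under 0.05, where the share of all tested genes was not computed. The median was -0.43. The summed values of the 13 ranged from 66674 to 70981 in double knockouts and from 75057 to 92792 in controls, and none was at 0 in every library. Abundant genes weigh most in these sums, among them Myl7, with means of 14533 in double knockouts and 24294 in controls. The mean log2 values of the list were 8.82, 8.79 and 8.66 in double knockouts 1 to 3, against 8.89, 9.13 and 9.05 in controls. The count of fallers was 1 without the robust option, 3 without double knockout 3 and 0 without both libraries numbered 3. Kcnj3 and Kcnj5 are in both the atrial and the sinoatrial list, and Kcnj5 was the atrial faller with the lowest adjusted p. Myl7, the atrial myosin light chain, had 16545, 14289 and 12766 in double knockouts, against 24496, 20186 and 28200 in controls (-0.74, adjusted p = 0.00226, or 0.0669 without the robust option). Stard10, an atrial lipid transfer gene, had 177, 177 and 159 in double knockouts, against 242, 275 and 344 in controls (-0.73, adjusted p = 0.00282), a call lost without control 3 (adjusted p = 0.0511). The part of atrial tissue or atrial gene activity in the Hcn4 difference was not tested. Of 7 ventricular markers none rose and 1 fell (median 0.02), the transcription factor gene Hand1 (-0.36, adjusted p = 0.0403, or 0.138 without the robust option). Of 12 core cardiomyocyte markers 1 rose and 2 fell (median -0.12), with sums of 615583 to 696032 in double knockouts and 756298 to 826846 in controls. Myh6 and Actc1 made up large parts of these sums, with means of 79505 and 130892 in double knockouts and 139844 and 187753 in controls. Of the 12 markers 10 lay below 0, where 47.2% of all tested genes did. The riser was Pln, the inhibitor of the calcium pump (0.75, adjusted p = 9.36e-05), and the fallers were Myh6, the alpha myosin heavy chain (-0.82, adjusted p = 1.68e-05), and Actc1, cardiac actin (-0.52, adjusted p = 0.000647, or 0.0835 without the robust option). Of 9 epicardial markers Krt19 rose (0.56, adjusted p = 0.000859) and Lrrn4 fell (-0.39, adjusted p = 0.0309), with a median of -0.03. The Lrrn4 call was lost without the robust option (adjusted p = 0.130) and in 5 of the 6 fits with 1 library left out (adjusted p 0.106 to 0.169), and that of Hand1 also in 5 of those 6 (adjusted p 0.0526 to 0.269). How far any of these marker groups entered into the values of the 9 genes was not tested. None of 12 tested neuron and glia markers (median 0.01), 6 endocardial and endothelial markers (median 0.07) or 3 tested lung and foregut markers was called in either direction, and 0 of these passed at an unadjusted p under 0.05. Among them were Gap43 (0.01), Npr3 (0.15), Cdh5 (0.04) and Epcam (0.43). Neuronal and glial markers summed to 592 to 825 in double knockouts and 683 to 744 in controls.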

How the data were processed

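PolyA RNA from hearts was sequenced in 3 double knockout and 3 control libraries as stranded single-end reads of 75 bp, per the labels' protocols. The submitters' processing notes list mm10, featureCounts 1.5.0, STAR 2.4.2a, Trimmomatic, DESeq and DESeq2 without a role or order, and the sources used here do not give strand or multi-mapping settings. The deposited values are a score, read counts multiplied by the authors with a factor for each library and then rounded; evenly spaced missing whole numbers in 3 libraries show the scaling. Multipliers were estimated at 0.899 to 1.06.

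Tests used limma 3.58.1 (R 4.3.3) on log2(value + 1), which understates the change of low genes, over 26747 genes whose mean was 1 or more in either genotype. Variances had a trend and robust moderation, tests were two-sided, and Benjamini-Hochberg adjustment covered all tested genes. Each adjusted p is from this fit or the named variant of it. Alternatives covered scaling, filters, pseudocounts, voom weights, GC and length trends, a replicate block and left-out libraries. The 9 genes, the 14 lists of 120 genes and the rules were chosen with earlier results of these data known. The rule named all 9, per list the 3 called genes ranked first by adjusted p (the 2 most abundant where none was called), genes overlapping or starting within 2 kb of the 9, and the 3 genes most like Hcn4; other genes of the lists were singled out after their values were seen. Exon lengths and coordinates are from GENCODE M21 (GRCm38), which held 99.3% of the identifiers. Promoters are from RefSeq for 6 of the 9 genes. Because no source ties the libraries to separate animals, p-values here reflect spread between libraries that may in part be technical. In each genotype the sex pattern of library 3 differed from that of libraries 1 and 2, so library 3 does not repeat their sample. Whether libraries 1 and 2 came from separate animals is not given. Pearson's r between libraries was 0.975 to 0.991, and no 2 columns were identical. Some genes that the rule or the lists hold are not reported here.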

Additional observations from a re-analysis of the deposited data

How the results depend on the processing

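Scaling by median of ratios or upper quartile, voom weights and pseudocounts of 0.5 or 4 left the direction and the call of all 9 genes as reported. A filter at a mean of 10 gave no value for Isl1 and Cntn2. With no filter on low values 963 genes were higher and 955 lower, and 11 listed genes were higher and 28 lower. Tbx3 was called in that fit (-0.54), which made 2 of the 9 lower. Dropping the robust option left 144 genes higher and 206 lower, with 3 listed genes higher and 3 lower. After removal of the library trends with GC and length, alone or with the replicate block, Hcn2 was at 0.017, Shox2 at 0.001 and Isl1 at -0.014, each reversed. In these fits 8 listed genes were higher and 16 lower, or 9 higher and 21 lower with the block. With 1 library left out, 186 to 608 genes were higher and 234 to 739 lower, 1 or 2 of the 9 were lower, 8 to 21 listed genes were lower and 3 to 6 higher, and the differences ranged from -0.49 to 0.13 for Hcn2, -0.36 to 0.11 for Hcn3, -0.22 to 0.24 for Shox2, -0.55 to 0.61 for Isl1, -0.81 to -0.32 for Tbx3, -0.154 to 0.132 for Gap43, -0.064 to 0.091 for Cdh5 and -0.139 to 1.192 for Epcam. Leaving out both libraries numbered 3 gave 14 genes higher and 24 lower, 0 of the 9 were lower (0 higher and 2 lower at an unadjusted p under 0.05), Hcn4 was at -1.01 and its call was lost, and 0 listed genes were higher and 1 lower, with Npr3 at -0.029 and Cdh5 at -0.027. Without double knockout 3 and the robust option, an alternative chosen after seeing the data, 4 genes were higher and 11 lower, 0 of the 9 and 0 listed genes were called (0 and 2 of the 9 higher and lower at an unadjusted p under 0.05), Hcn4 was at -1.07 with an adjusted p of 0.136, Hcn3 was at 0.11 and Shox2 at 0.036. Fewer libraries remain in these fits. Replicate numbers 1 and 2 did not pair the libraries. The correlation of same-numbered deviations was 0.05 and 0.07 for them, against 0.17 between number 1 of either genotype and number 2 of the other. For the male-pattern libraries numbered 3 it was 0.33. Between a library 3 and number 1 or 2 of the other genotype it was -0.20 to -0.19. With the replicate block Tbx3 was called (-0.54, limma adjusted p = 0.0373), so 2 of the 9 were lower, and the calls of the other 8 did not change. In that fit 2 conduction genes were lower, where 681 of all tested genes were lower and 674 higher. The cause of these shifts was not tested. Depth limits Hcn2, Hcn3, Shox2, Isl1 and Cntn2, which had 22 normalised reads or fewer in each library.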
